A study of Mus musculus with 16 samples.

Results

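The data follow 4 probes of the Illumina MouseRef-8 v2 BeadChip in whole lung of Mmp28-/- mice and wild-type mice, after cigarette smoke or room air. They were chosen by the smoke arrays, as the 2 probes with the largest positive and the 2 with the largest negative log2 difference, knockout minus wild type, among the probes called under smoke. They numbered 4 of the 25697 probes on each array, and all 4 were among the 16126 probes detected often enough to be tested. The platform annotation gave ILMN_1229454 to Cuedc1 and ILMN_1249828 to Tlcd2, both higher in the knockout, and ILMN_2732747 and ILMN_3153940 both to Unc45b, lower in the knockout. The 4 probes thus stood for 3 genes, all on chromosome 11, and the 2 Unc45b probes were not independent readings. Because the smoke arrays chose the probes, every difference taken from those arrays is a description, and only the genotype difference in room air is given a test. That test took its estimate of spread from all 16 arrays, the smoke arrays that chose the probes included, so a fit of the air arrays alone is given beside it.

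The groups were Mmp28-/- mice under smoke (n = 5 arrays), wild-type C57BL/6 mice under smoke (n = 5), Mmp28-/- mice in room air (n = 3) and wild-type C57BL/6 mice in room air (n = 3). The knockout was carried on a C57BL/6 background, and the mice were matched for age and sex, per the labels' protocols. Smoke came from 3R4F reference cigarettes in daily sessions of 3 hours, 5 days weekly, for 3 months from the age of 7 to 9 weeks, and the controls breathed room air in a similar chamber at the same facility. Total RNA of lung homogenate was hybridised, so fewer cells of a type and less RNA per cell cannot be told apart in any value below. The labels do not say that replicates were separate animals, so each p-value measures only the spread between these samples.

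Mmp28 encodes a secreted matrix metalloproteinase that is made in epithelium and macrophages, and the knockout was set against wild type to ask how its loss changes the lung's response to smoke. UNC45B is a chaperone that helps myosin fold and assemble in striated muscle, which in the lung is found in the sleeve of cardiac-type muscle around the large pulmonary veins. TLCD2 is a membrane protein with a TLC domain, and in human cells it is known to limit the content of polyunsaturated lipids in membranes. CUEDC1 carries a CUE domain, a small fold that binds ubiquitin.

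The promoters of the 3 genes are shown because the genes share a chromosome with Mmp28 and differed with the knockout's genotype. Each sequence is from RefSeq (GRCm38.p6), 250 bases before the start in lower case and the first 50 transcribed bases in capitals, all on the plus strand. The window of Unc45b was chr11:82911003-82911302, that of Cuedc1 (the first of its 2 annotated starts) was chr11:88098896-88099195 and that of Tlcd2 was chr11:75467800-75468099.
Unc45b: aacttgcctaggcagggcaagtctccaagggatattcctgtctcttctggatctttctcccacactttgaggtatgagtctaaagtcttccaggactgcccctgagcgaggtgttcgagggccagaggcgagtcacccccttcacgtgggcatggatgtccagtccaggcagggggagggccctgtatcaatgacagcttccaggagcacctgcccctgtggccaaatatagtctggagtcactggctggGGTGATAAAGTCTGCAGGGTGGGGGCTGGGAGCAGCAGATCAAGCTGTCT
Cuedc1: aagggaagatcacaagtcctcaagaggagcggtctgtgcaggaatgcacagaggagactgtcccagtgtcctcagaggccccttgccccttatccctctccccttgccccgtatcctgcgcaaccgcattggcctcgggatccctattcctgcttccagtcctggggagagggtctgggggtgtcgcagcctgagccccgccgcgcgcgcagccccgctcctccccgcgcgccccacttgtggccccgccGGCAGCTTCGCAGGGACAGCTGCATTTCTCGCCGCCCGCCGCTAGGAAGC
Tlcd2: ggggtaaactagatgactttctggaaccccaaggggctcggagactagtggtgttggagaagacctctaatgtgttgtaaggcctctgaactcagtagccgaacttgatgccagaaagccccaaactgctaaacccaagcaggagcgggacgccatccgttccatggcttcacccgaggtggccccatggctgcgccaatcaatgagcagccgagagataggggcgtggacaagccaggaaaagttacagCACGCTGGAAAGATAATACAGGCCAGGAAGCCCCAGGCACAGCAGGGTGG
These starts lay 0.552 Mb (Unc45b), 4.64 Mb (Cuedc1) and 7.995 Mb (Tlcd2) from the start of Mmp28. In the order of annotated genes, Unc45b was 32 genes before Mmp28, Tlcd2 247 genes before it and Cuedc1 144 genes after it. The core of the xenobiotic response element, GCGTG on either strand, occurred 2 times in the Tlcd2 window and 0 times in the windows of Unc45b and Cuedc1. It occurred in 32.4% of all 32851 promoter windows of that length. The letters TATAAA on either strand occurred in none of the 3 windows and in 13.6% of all windows. G and C made up 57% of the Unc45b window, 67% of the Cuedc1 window and 56% of the Tlcd2 window, beside a median of 52.7% over all windows.

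The arrays detected between 13971 and 15238 probes each. The median rank correlation with arrays of the same group was 0.972 to 0.987 on 15 arrays and 0.959 on wild-type air replicate 1, which stood apart, so the fitted air differences and the counts over gene lists and neighbours below are also given without it. Without it limma called 2 probes of 16126 in air, against 44 with it. Of 21 probes of lung cell markers, 20 were detected on all 16 arrays and 1 on none. The knockout itself could not be checked at the RNA level. The Mmp28 probe ILMN_1260453 was detected on 0 of 16 arrays. The other Mmp28 probe, ILMN_3159029, was detected on all 16, at a log2 level of 5.73 ± 0.31 in knockout smoke, 5.99 ± 0.33 in wild-type smoke, 5.70 ± 0.32 in knockout air and 5.82 ± 0.19 in wild-type air (SD). Its groups overlapped in both exposures, and knockout minus wild type in air was -0.12 (SE 0.23, 95% interval -0.60 to 0.35, limma adjusted p = 0.847), and -0.18 without wild-type air replicate 1 (adjusted p = 0.870). The sources used here name neither the stretch of the transcript that this probe reads nor the deleted part of the gene. Knockout and wild type therefore mean the labels throughout.

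Of the 4 probes, that of Cuedc1 told the genotypes apart most widely. Levels are log2 intensities after background correction and quantile normalization, each compared only with the same probe on other arrays. ILMN_1229454 read 6.85, 6.76, 6.85, 7.10 and 6.50 in knockout smoke lungs, against 4.46, 4.78, 4.51, 4.81 and 4.72 in wild-type smoke lungs. In room air it read 6.44, 5.97 and 6.81 in knockout lungs, against 4.65, 4.47 and 4.75 in wild-type lungs. Every knockout array was above every wild-type array whatever the exposure, with 1.16 between the lowest knockout and the highest wild-type value. The probe was detected above background on 8 of 8 knockout arrays and 0 of 8 wild-type arrays, so the wild-type level is known only as an upper bound. A bound was set at the dimmest signal that counted as detected on each wild-type array, or at the probe's own signal where that was higher. Against it, and on this corrected scale only, the knockout mean of Cuedc1 was at least 3.75-fold the wild-type mean under smoke. In air it was at least 2.79-fold. These bounds carry no sampling error and depend on the processing. The lowest log2 difference among the alternatives below was 0.41 under smoke and 0.30 in air.

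In room air, which the choice of probes did not use, the Cuedc1 difference was 1.78 on the log2 scale (SE 0.19, 95% interval 1.39 to 2.18, limma adjusted p = 0.000514). The point estimate uses wild-type values below detection, and at the bound the air difference of the means is at least 1.48 on this scale. The probe also passed the detection filter only through its knockout arrays, which limits the air test. Its direction held on 3 of 3 knockout arrays, and the exact two-sided permutation test of 3 against 3 arrays gave p = 0.1, the smallest that its 20 splits allow. Without wild-type air replicate 1 the difference was 1.79 (adjusted p = 0.00327). A fit of the 6 air arrays alone, whose spread owes nothing to the smoke arrays, gave the same 1.78 with an adjusted p of 0.420. The authors' processed values gave 0.30 (adjusted p = 0.0637), and the fit with array background as a covariate gave 1.61 (adjusted p = 0.0599). The difference under smoke was 2.16 (SE 0.14).

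The order of the Cuedc1 group means was knockout smoke (6.81 ± 0.21), knockout air (6.41 ± 0.42), wild-type smoke (4.66 ± 0.16) and wild-type air (4.62 ± 0.14, SD). Knockout smoke and knockout air overlapped, as did wild-type smoke and wild-type air. Smoke minus air was 0.41 (SE 0.17) in the knockout and 0.03 (SE 0.17) in wild type, and both wild-type groups were below detection.

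Tlcd2 was also higher in the knockout in both exposures, by less. ILMN_1249828 read 6.03, 6.15, 5.93, 6.00 and 5.79 in knockout smoke lungs, against 5.33, 5.08, 4.85, 5.32 and 5.15 in wild-type smoke lungs. In room air it read 5.77, 5.78 and 5.77 in knockout lungs, against 4.89, 4.92 and 4.56 in wild-type lungs. No knockout array overlapped any wild-type array, and the gap over all 16 was 0.44. The probe was detected on 8 of 8 knockout arrays, on 4 of 5 wild-type smoke arrays and on 1 of 3 wild-type air arrays. Knockout minus wild type in air was 0.98 (SE 0.14, 95% interval 0.68 to 1.28, limma adjusted p = 0.0126), and 1.03 without wild-type air replicate 1 (adjusted p = 0.0418). The exact two-sided permutation p was 0.1, the smallest possible, with the direction seen on 3 of 3 knockout arrays. The call was lost without knockout air replicate 1 (0.98, adjusted p = 0.0687) and without knockout air replicate 3 (0.98, adjusted p = 0.0922). It was also lost in the fit of the air arrays alone (adjusted p = 0.420), with no background correction (0.27, adjusted p = 0.0567), on the authors' processed values (0.14, adjusted p = 0.0811) and with array background as a covariate (1.05, adjusted p = 0.225). Under smoke the difference was 0.83 (SE 0.11), a 1.78-fold higher level.

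The Tlcd2 group means ran from knockout smoke (5.98 ± 0.13) through knockout air (5.77 ± 0.0052) and wild-type smoke (5.15 ± 0.20) to wild-type air (4.79 ± 0.20, SD). Wild-type smoke and wild-type air overlapped. Knockout smoke lay just above knockout air, its lowest array at 5.79 against a highest of 5.78. How many of all tested probes were so separated between smoke and air was not counted. Smoke minus air was 0.21 (SE 0.13) in the knockout and 0.35 (SE 0.13) in wild type.

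A further Tlcd2 probe, ILMN_2814385, came next after the 2 chosen probes that were higher under smoke, and so fell just outside the choice. Its difference there was 0.83 (SE 0.11), beside 0.83 for the chosen Tlcd2 probe just inside. It averaged 5.51 ± 0.12 in knockout smoke and 4.68 ± 0.15 in wild-type smoke (SD, n = 5 each), and 5.33 ± 0.19 in knockout air and 4.64 ± 0.22 in wild-type air (SD, n = 3 each). Its 8 knockout arrays were again all above its 8 wild-type arrays, with a gap of 0.30. It was detected on 8 of 8 knockout arrays and on 2 of 8 wild-type arrays, so it passed the detection filter only through the knockout arrays. The air difference was 0.69 (SE 0.14, limma adjusted p = 0.0512), which did not pass the threshold, and 0.65 without wild-type air replicate 1 (adjusted p = 0.176). On the side of lower levels, the probe just outside was Csf3r ILMN_1241302, the receptor of granulocyte colony-stimulating factor. Its smoke difference was -0.81 (SE 0.14) and its air difference -0.34 (SE 0.18, adjusted p = 0.414), or -0.24 without wild-type air replicate 1 (adjusted p = 0.733). The further Csf3r probes tested, ILMN_2746501, ILMN_2707409, ILMN_2806180 and ILMN_1255648, were not called under smoke. Without wild-type air replicate 1 they differed by -0.37 to -0.22 in air, none called.

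Both genes were dim, so the deposited intensities were set beside the array background. Cuedc1 ranged over 213 to 249.7 array units in knockout smoke, 132 to 148 in wild-type smoke, 154 to 194 in knockout air and 127 to 129.6 in wild-type air. Tlcd2 ILMN_1249828 ranged over 172 to 181 in knockout smoke, 142 to 159 in wild-type smoke, 143 to 161 in knockout air and 123 to 141 in wild-type air. For Tlcd2 the genotypes did not overlap within an exposure, while knockout air overlapped wild-type smoke before correction. The background of an array, taken as the mean intensity of probes with detection p-values near the middle of their range, averaged 126 ± 2.71 in knockout smoke, 130 ± 2.58 in wild-type smoke, 114 ± 4.99 in knockout air and 121 ± 3.08 in wild-type air (SD). It was thus lower in the knockout of each exposure. With background as a covariate the air difference was 1.61 for Cuedc1 and 1.05 for Tlcd2, and with no background correction it was 0.57 for Cuedc1 and 0.27 for Tlcd2.

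Unc45b was lower in the knockout, most widely under smoke. ILMN_2732747 read 8.36, 8.46, 8.47, 8.31 and 8.52 in knockout smoke lungs, against 9.52, 9.80, 9.93, 9.82 and 9.90 in wild-type smoke lungs. In room air it read 8.10, 8.21 and 8.41 in knockout lungs, against 8.67, 8.47 and 9.26 in wild-type lungs. The genotypes were apart by 1.01 under smoke but by 0.062 in air, and over all 16 arrays they overlapped. The probe was detected on all 16 arrays. Under smoke knockout minus wild type was -1.37 (SE 0.13), a 2.59-fold lower level. In air it was -0.56 (SE 0.17, 95% interval -0.91 to -0.21), which did not pass the threshold (limma adjusted p = 0.154, exact two-sided permutation p = 0.1). Without wild-type air replicate 1 it was -0.62 (adjusted p = 0.237), and without wild-type air replicate 3 it was -0.33 (adjusted p = 0.253).

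The second Unc45b probe gave the same pattern. ILMN_3153940 read 8.68, 8.85, 9.19, 8.89 and 9.13 in knockout smoke lungs, against 9.94, 10.18, 10.42, 10.15 and 10.52 in wild-type smoke lungs. In room air it read 8.69, 8.79 and 8.81 in knockout lungs, against 9.30, 9.26 and 9.71 in wild-type lungs. All 8 knockout arrays lay below all 8 wild-type arrays, by 0.070 at the closest. Under smoke the difference was -1.29 (SE 0.13), a 2.45-fold lower level. In air it was -0.66 (SE 0.17, 95% interval -1.02 to -0.31, limma adjusted p = 0.0936), with an exact two-sided permutation p of 0.1, and it was -0.72 without wild-type air replicate 1 (adjusted p = 0.196). The other Unc45b probe, ILMN_3074890, was detected on 1 of 16 arrays and was not tested.

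The order of the group means was the same for both Unc45b probes. For ILMN_2732747, from low to high, it was knockout air (8.24 ± 0.16), knockout smoke (8.42 ± 0.088), wild-type air (8.80 ± 0.41) and wild-type smoke (9.80 ± 0.16, SD). For ILMN_3153940 it was knockout air (8.76 ± 0.067), knockout smoke (8.95 ± 0.21), wild-type air (9.42 ± 0.25) and wild-type smoke (10.24 ± 0.23, SD). Knockout smoke overlapped wild-type air on ILMN_2732747 and lay below it on ILMN_3153940. Knockout smoke and knockout air overlapped on both probes, while wild-type smoke lay above wild-type air on both. The share of all tested probes whose smoke and air arrays did not overlap was not counted. Smoke differences were common. With 1 array left out, limma called 3693 to 4719 of 16126 probes between smoke and air in wild type, and 2112 to 4033 in the knockout. Smoke minus air was 0.18 (SE 0.15) in the knockout and 1.00 (SE 0.15) in wild type for ILMN_2732747. It was 0.19 (SE 0.15) in the knockout and 0.82 (SE 0.15) in wild type for ILMN_3153940. The knockout response minus the wild-type response was -0.81 (SE 0.21) and -0.63 (SE 0.21) for these probes, and it carries no test because the choice used the same smoke arrays. For comparison, that value was 0.37 (SE 0.24) for Cuedc1 and -0.15 (SE 0.18) for Tlcd2 ILMN_1249828. The annotation places the long non-coding RNAs Unc45bos and Slfn5os across the Unc45b locus, and which strand and stretch the probes read is not given in the sources used here.

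Since UNC45B is a protein of striated muscle, other muscle transcripts were read beside it, in a list made after the levels were seen. Of its 22 probes, 5 were detected on all 16 arrays (Actc1 by 2 probes, Actn2, Des and Myl4), while 9 were detected on none, among them Myh7, Pln and Ckm. The summed normalized level of the list was 1492 to 1840 in knockout smoke, 1365 to 1677 in wild-type smoke, 1037 to 1089 in knockout air and 994 to 1089 in wild-type air. These sums overlapped between genotypes in both exposures, and their part in the Unc45b difference was not tested. Of 9 probes tested, 0 were called between genotypes under smoke by limma, and 1 passed an unadjusted p of 0.05, Myl7, the atrial light chain of myosin. Myl7 was higher in the knockout, by 0.66 (SE 0.22) under smoke and 0.69 (SE 0.29) in air, and by 0.56 (SE 0.32) in air without wild-type air replicate 1. It was near the detection limit, detected on 5 of 5 knockout smoke and 1 of 5 wild-type smoke arrays. In air it was detected on 2 of 3 knockout and 1 of 3 wild-type arrays. In air 1 was called lower, Mylpf, a light chain of fast skeletal muscle myosin, at -0.83 (SE 0.13), and 3 passed an unadjusted p of 0.05, Mylpf, Myl7 and Tnnt3. Tnnt3 averaged 4.71 ± 0.17 in knockout air and 5.16 ± 0.093 in wild-type air (SD), detected on 0 of 3 and 3 of 3 arrays. Under smoke it averaged 4.72 ± 0.18 in the knockout and 4.62 ± 0.11 in wild type (SD). Of all tested probes, 4.46% passed unadjusted under smoke and 13.7% in air. Without wild-type air replicate 1, limma called 0 of the 9 in air and 2 passed unadjusted (22.2%, beside 10.3% of all tested probes). In that fit the Mylpf difference was -0.73 (SE 0.14) and no longer called. Mylpf was below detection on all 3 knockout air arrays and detected on all 3 wild-type air arrays. Actn2, the sarcomeric alpha-actinin, differed by -0.01 (SE 0.19) under smoke, by 0.01 (SE 0.24) in air, and by -0.10 (SE 0.27) in air without wild-type air replicate 1.

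Of the 4 probes, 2 were called in air, both higher in the knockout, where 0.273% of all tested probes were called (0.242% higher and 0.0310% lower). These calls rest on a spread shared with the smoke arrays that chose the probes. In the fit of the air arrays alone limma called 0 of the 4 and 0 of all 16126 probes, with 1292 of all at an unadjusted p under 0.05. All 4 had non-overlapping genotypes in air, as had 14.7% of all tested probes. Over all 16 arrays, 3 of the 4 had non-overlapping genotypes, beside 8 probes of 16126 (0.0496%), and that separation follows in part from the choice under smoke. The unchosen probes among those 8 were Tlcd2 ILMN_2814385, Nle1 ILMN_2984434 and Mrps23 ILMN_2909068 on chromosome 11, Dnajc2 on chromosome 5 and Nr3c1 on chromosome 18. Under smoke all 4 were called by construction, and all 4 had non-overlapping genotypes, which the choice favours but does not require. The called probes there were 7 of 16126 (0.0434%, 0.0248% higher and 0.0186% lower), and genotypes did not overlap for 1.09% of tested probes. The median difference over all tested probes was 0.00 under smoke and -0.02 in air.

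Across the 16 arrays, which share 4 groups, Pearson's r was 0.98 between the 2 Unc45b probes and 0.91 between Cuedc1 and Tlcd2 ILMN_1249828. Within the 5 wild-type smoke arrays these values were 0.89 for Unc45b and 0.23 for Cuedc1 with Tlcd2, and within the 5 knockout smoke arrays 0.66 and 0.48. Over all 16 arrays Cuedc1 ran opposite to Unc45b, with r of -0.75 and -0.80, a sign that follows from the choice under smoke. Within the wild-type smoke arrays these values were 0.41 and 0.17, and within the knockout smoke arrays -0.88 and -0.38. The probes most like each member, leaving out its own gene, were named by the highest r over the 16 arrays. For Cuedc1 they were the Tlcd2 probes ILMN_2814385 (0.94) and ILMN_1249828 (0.91) and Nle1 ILMN_2984434 (0.91). For Tlcd2 ILMN_1249828 they were Cuedc1 (0.91), Arhgap8 (0.88) and Pgk1 (0.85), a glycolytic kinase. For both Unc45b probes Chrm3, a muscarinic acetylcholine receptor, came first (0.88 and 0.88) and Rnf144a second (0.88 and 0.86). Ovca2 (0.80) came next for ILMN_2732747 and Slc25a12 (0.81) for ILMN_3153940. All r over the 16 arrays hold the genotype difference that chose the members. Probes that differed with genotype in the same direction therefore rank high in part by the choice. Of the 10 distinct probes named by Pearson's r, 7 were also named by rank correlation.

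Nle1, which encodes a ribosome assembly factor, lies next to Unc45b in the gene order, 33 genes before Mmp28. Its probe ILMN_2984434 differed in the direction opposite to Unc45b, at 7.82 ± 0.16 in knockout smoke and 7.04 ± 0.15 in wild-type smoke (SD, n = 5 each), and 7.85 ± 0.33 in knockout air and 7.02 ± 0.30 in wild-type air (SD, n = 3 each). The genotypes were apart by 0.21 over all 16 arrays. The differences were 0.77 (SE 0.14) under smoke and 0.83 (SE 0.17) in air, and 0.67 (SE 0.18) in air without wild-type air replicate 1. The probe was not called in either exposure, but lay just above the threshold, at a limma adjusted p of 0.0527 under smoke and 0.0543 in air. Without wild-type air replicate 1 its limma adjusted p in air was 0.202. Another Nle1 probe, ILMN_2712419, was detected on 0 of 16 arrays.

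Among the nearest genes to Mmp28, limma called only Unc45b, and only under smoke, where its probes were chosen for being called. Within 100 genes on each side, 94 probes of 66 genes were tested. Under smoke 2 of them (2.13%, beside 0.0434% of all tested probes) were called, the chosen Unc45b probes, so this share follows from the choice. At an unadjusted p of 0.05, 12 passed (12.8%, beside 4.46% of all tested probes), of which 10 were not chosen probes. In air limma called 0, and 17 passed an unadjusted p of 0.05 (18.1%, beside 13.7% of all), of which 15 were not chosen probes. Without wild-type air replicate 1 limma called 0, and 13 passed unadjusted (13.8%, beside 10.3% of all). The median difference was 0.01 under smoke and -0.08 in air, or 0.01 in air without that array. Of all tested probes with a known chromosome, 9.09% lay on chromosome 11. Of the 7 probes called under smoke, 5 did, from 3 genes, and these included the 4 chosen probes. The other 2 were Csf3r on chromosome 4 and Cfl2 on chromosome 12, an actin-severing cofilin of muscle, at 0.82 (SE 0.14) under smoke and 0.53 (SE 0.18, adjusted p = 0.210) in air, or 0.61 without wild-type air replicate 1 (adjusted p = 0.269). A further tested Cfl2 probe, ILMN_1241871, was not called under smoke. Of the 44 probes called in air, 43 had a known chromosome and 7 of these lay on chromosome 11, beside that 9.09% of tested probes.

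Gene lists for the study's question held no call between genotypes under smoke. Of all tested probes, 4.46% passed an unadjusted p of 0.05 under smoke and 13.7% in air. Among 23 tested probes of matrix metalloproteinases and their inhibitors, limma called 0 under smoke and 0 in air (2 and 9 at an unadjusted p under 0.05), with medians of -0.04 and 0.40. Among 39 macrophage probes it called 0 under smoke and 0 in air (8 and 7 unadjusted), with medians of -0.26 and 0.05. Among 31 probes of xenobiotic and oxidant response genes it called 0 under smoke and 0 in air (2 and 6 unadjusted), with medians of 0.06 and 0.00. Without wild-type air replicate 1, 0 probes of these lists were called in air by limma. The unadjusted counts were then 10 for metalloproteinases and inhibitors (43.5%, median 0.44) and 1 for macrophage probes (2.56%, median 0.10). For xenobiotic and oxidant response probes the count was 5 (16.1%, median 0.06). The share over all tested probes was 10.3%.

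Some lung cell markers differed with genotype in air, where Cuedc1 and Tlcd2 were tested. Over all tested probes, 13.7% passed an unadjusted p of 0.05 in air and 4.46% under smoke, and limma called 0.273% in air. Of 20 tested marker probes, 2 were called higher in knockout air and 10 passed an unadjusted p of 0.05, with a median of 0.55, while under smoke 0 were called by limma and 0 passed unadjusted, with a median of 0.09. The 2 called were Col1a1, the main fibrillar collagen chain of fibroblasts, at 1.16 (SE 0.16, adjusted p = 0.0123), and Dcn ILMN_2747959, the matrix proteoglycan decorin, at 1.03 (SE 0.20, adjusted p = 0.0391). Both calls were lost without wild-type air replicate 1, where Col1a1 was at 1.10 (adjusted p = 0.0624) and Dcn ILMN_2747959 at 0.86 (adjusted p = 0.176). In that fit 0 of the 20 were called, 7 passed unadjusted (35%, beside 10.3% of all tested probes), and the median of the 20 was 0.28. The summed normalized level of the list was 126967 to 170004 in knockout smoke, 143351 to 151617 in wild-type smoke, 133008 to 157111 in knockout air and 84674 to 134683 in wild-type air. Their part in the air differences was not tested. Of 16 probes of other cell types, 9 were tested, and limma called 0 under smoke and 0 in air (2 and 1 unadjusted), or 0 in air without wild-type air replicate 1 (2 unadjusted). Of these 16 probes, 5 were detected on no array.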

How the data were processed

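Whole-lung RNA was read on 16 Illumina BeadChips. The deposited table held an intensity and a detection p-value per probe and array, not normalized by the authors, and a second table held the authors' processed intensities, which share the same quantiles on every array. Per the submitters' processing notes lumi was used, with settings not stated.

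From the deposited intensities, background was corrected by normexp from the detection p-values (neqc, offset 16), quantile normalized and put on the log2 scale with limma 3.58.1 in R 4.3.3. Probes with detection p below 0.05 on at least 3 arrays were kept, 16126 of 25697. A model of 4 group means over all 16 arrays was fitted with lmFit and eBayes, and p-values were adjusted by Benjamini-Hochberg over all tested probes, with calls below 0.05. The number of arrays limits the precision. The procedure was tested on simulated data.

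Of the probes, 23978 had 1 gene symbol in the platform annotation and 1719 had none, and 23962 were matched by Entrez identifier to RefSeq. Besides the 4 probes, the text names by rule the probe next in rank in each direction under smoke, other probes of the same genes and of Mmp28, the 3 probes most like each member, called probes within 100 genes of Mmp28, and called members of the gene lists. Cfl2, Mylpf, Myl7, Actn2, Tnnt3, Mrps23, Dnajc2 and Nr3c1 were described after their values were seen. The members and lists were chosen with earlier results of these data known. No 2 arrays held identical values (0 of 120 pairs). Which BeadChip held which array is not given in the sources used here, so no slide block was fitted. Alternatives were an offset of 50, no background correction, scaling by the median, the authors' values, no filter and a stricter filter (detection p below 0.01 on 8 arrays), the air arrays alone, array weights, a trended robust fit, array background as a covariate, a replicate block, and leaving out each array.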

Additional observations from a re-analysis of the deposited data

Results flagged for a closer look

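Cfl2 ILMN_1249976 in knockout smoke replicate 4 stood apart from the other 4 arrays of its group, at a log2 level of 7.12 against 6.64 to 6.74. Of 30 groups of 5 arrays checked this way it was the 1 that stood out, where chance gives about 1.5. None of the 4 probes had such an array in a smoke group, and groups of 3 were not checked.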

How the results depend on the processing

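None of the 4 probes changed direction between genotypes under any alternative. In air the 44 probes called (39 higher and 5 lower) became 13 with no background correction, 3 with median scaling (3 higher and 0 lower), 0 with the authors' processed values, 16 with no filter, 0 with the air arrays alone, 7 with array weights, 93 with a trended robust fit, 0 with array background as a covariate and 139 with the replicate block; leaving out 1 array gave 1 to 117. It was 1 without knockout air replicate 1 or 3, 2 without wild-type air replicate 1, 91 without wild-type air replicate 3 and 117 without wild-type air replicate 2. Under smoke the 7 called became 21 with array weights, 4 with the covariate and 11 with the replicate block, and 5 to 10 with 1 array left out. Cuedc1 in air was 1.58 to 2.00 with 1 array left out and called each time; it was 1.03 with an offset of 50 and 0.57 with no background correction, both called, and not called with the authors' values (0.30, adjusted p = 0.0637), the air arrays alone (1.78, adjusted p = 0.420) or the covariate (1.61, adjusted p = 0.0599). Tlcd2 ILMN_1249828 in air was 0.86 to 1.04 with 1 array left out, called in 14 of 16 fits, and not called with no background correction (0.27, adjusted p = 0.0567), the authors' values (0.14, adjusted p = 0.0811), the air arrays alone (0.98, adjusted p = 0.420) or the covariate (1.05, adjusted p = 0.225). Unc45b ILMN_2732747 in air was called under none of these settings (-0.78 to -0.33), and ILMN_3153940 (-0.83 to -0.48) only with the replicate block (-0.66, adjusted p = 0.0302). With 200 genes on each side of Mmp28, 2 probes were called in air, of Cuedc1 and Rab34, against 0 with 100. Same-numbered arrays of the 2 genotypes did not deviate together (r of -0.13 to 0.16 under smoke and -0.21 to 0.08 in air), so the numbers are not taken as pairs. The cause of these changes was not tested. The limits are the 3 arrays per air group, 2 genes near the background, probes whose positions are not given, and genotype known only from the labels.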
